A study of Homo sapiens with 17 samples.

Results

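The genes of DNA replication and nucleotide supply are a set of 52 genes whose products license replication origins, unwind and copy DNA, make its building blocks and restore chromatin behind the fork. They were chosen by gene symbol, from a list of roles, out of 23230 genes in the count tables. All 52 were found there, and all 52 were among the 15550 genes with enough counts to be tested. RNA was sequenced from LNCaP-abl (abl), an androgen-independent derivative of the human prostate cancer line LNCaP, and from LNCaP itself, which depends on androgen. Cells of each line received siRNA against the cyclic-AMP responsive factor CREB1 (siCREB1), siRNA against the pioneer factor FOXA1 (siFOXA1) or a control siRNA (siControl), all at 40 nM for 3 days. Each of the 6 groups has 2 libraries. All groups, controls included, were treated in medium with 5% charcoal-stripped serum, which is low in steroid hormone. Before that, abl was kept in 10% charcoal-stripped serum and used at passages 62 to 64, while LNCaP was kept in 10% complete serum and used at passages 32 to 34. Each line is a single line, and whether the 2 libraries of a group came from separate cultures is not stated, so p-values measure only the spread between these libraries, which may be technical.

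Replication begins when the origin recognition complex and the loaders CDC6 and CDT1 place the ring of MCM2 to MCM7 on DNA in G1. In S phase CDC45 and the GINS complex, with MCM10, turn that ring into a running helicase, and polymerases, the clamp PCNA and its loader RFC follow it. Many of these genes are transcribed in late G1 under E2F factors, whereas most genes of mitosis are transcribed later in the cycle. Bulk RNA cannot tell fewer cells in S phase from less RNA per cell.

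Libraries held 9092597 to 37314039 reads assigned to genes, the lowest and the highest both being abl siControl libraries, and the 52 genes took 0.15% to 0.221% of them. CREB1 stood at 46.3 and 43.9 CPM (TMM-scaled counts relative to the library total) in abl siCREB1 libraries, against 78.8 and 79.7 CPM in abl siControl libraries. In LNCaP it stood at 38.7 and 29.8 CPM under siCREB1, against 80.9 and 85.3 CPM under siControl, and the fall was smaller in abl than in LNCaP (difference 0.47 ± 0.13 SE on the log2 scale, edgeR adjusted p = 0.0208). FOXA1 stood at 196 and 229 CPM in abl siFOXA1 libraries against 556 and 504 CPM in siControl, and in LNCaP at 215 and 211 CPM against 799 and 695 CPM. CREB1 also fell under siFOXA1, by 0.44 in abl and by 0.44 in LNCaP (log2, adjusted p = 0.00114 and 0.00126). All 9 luminal prostate markers were detected, with a summed level of 2400 to 4010 CPM per library. KLK3, however, was near the floor in abl, at 1 to 23 counts per library against 436 to 2285 in LNCaP. Fibroblast markers summed to 11.2 to 99 CPM, with COL1A2 at 0, and blood and endothelial markers to 1.34 to 31.7 CPM, with HBA1 at 0. The 7 neutrophil markers summed to 0.626 to 6.47 CPM, with ELANE at 0. The first siControl library of each line stood apart in 2 of these 7, with 87 CSF3R counts in abl and 76 in LNCaP against at most 2 in any other library, and 20 S100A8 counts in each against at most 1. S100A9 set them apart from the second siControl libraries, with 88 counts against 1 in abl and 62 against 4 in LNCaP. It did not set them apart from siFOXA1 libraries, which held 59 to 96 counts. Their neutrophil sums were 6.47 and 6.25 CPM, against 1.45 and 1.09 CPM in the second siControl libraries. In a siFOXA1 library the sum reached 5.93 CPM. Counts of called genes are also given without both first siControl libraries, which leaves 1 siControl library per line that is assumed to vary like the other groups.

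Under siCREB1 the called replication genes were mostly higher in abl and mostly lower in LNCaP. In abl siCREB1 cells 25 of the 52 genes were higher and 8 lower than in abl siControl cells, with a median log2 change of 0.22 against 0.03 over all genes tested. The background was 27.5% of all tested genes called higher and 23.7% called lower, 51.2% in all. In LNCaP siCREB1 cells 1 of the 52 was higher and 29 were lower than in LNCaP siControl cells, with a median of -0.30 against -0.00 over all genes, where 17.8% of all genes were called higher and 19.8% lower, 37.6% in all. Calls are at an adjusted p below 0.05 in edgeR's quasi-likelihood test over all genes. Without the first siControl libraries the counts were 20 higher and 8 lower in abl, and 2 higher and 22 lower in LNCaP.

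**Figure D1:**
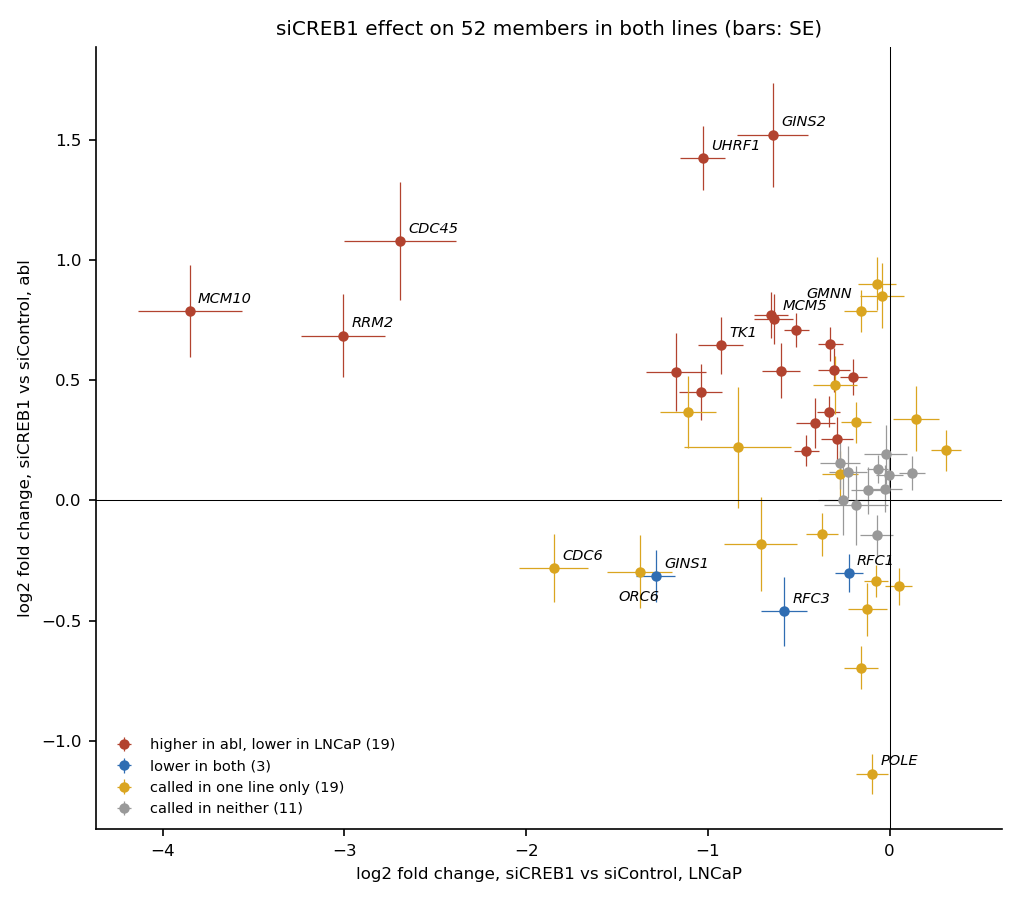
Log2 fold change of each of the 52 genes under siCREB1 against siControl, in abl on the vertical axis and in LNCaP on the horizontal axis; points are genes, bars are standard errors (SE), and colours give the calls in both lines. The 19 red points, led by MCM10, RRM2 and CDC45, lie above 0 in abl and below 0 in LNCaP, and only RFC1, RFC3 and GINS1 are called lower in both.

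The 2 comparisons share no library, and their calls could be set against each other. Their siControl groups were not free of shared deviations, as the differences between library 1 and library 2 correlated at 0.499 between them. A total of 19 of the 52 genes were higher in abl and lower in LNCaP, against 1.9% of all tested genes. Another 3 were lower in both lines (11.4% of all tested genes), none was higher in both (11.4%) and 11 were called in neither (37.2%). The 19 were ORC1, MCM2 to MCM7, CDC45, GINS2, MCM10, PCNA, FEN1, LIG1, RRM1, RRM2, TYMS, TK1, UHRF1 and DNMT1. They fell to 11 without the first siControl libraries, when 1 gene was called higher in both. A direct test of the difference between the lines called 28 of the 52 genes higher in abl than in LNCaP in their siCREB1 effect and 3 lower, with a median difference of 0.68 against 0.05 over all genes. Of all tested genes 14.8% were called higher and 10.8% lower in this test, 25.5% in all. Without the first siControl libraries 27 were called higher and 3 lower.

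The MCM2-7 ring, the core of the replicative helicase, moved as a whole. All 6 subunits were higher in abl siCREB1 cells, by 0.21 (MCM6) to 0.77 (MCM7) on the log2 scale, and all 6 were lower in LNCaP siCREB1 cells, with changes of -0.31 (MCM4) to -0.65 (MCM7). The difference between the lines was called for all 6. The summed level of the ring was 389 and 365 CPM in abl siCREB1 libraries against 245 and 253 CPM in abl siControl libraries. In LNCaP it was 219 and 231 CPM under siCREB1 against 308 and 320 CPM under siControl. The siCREB1 and siControl sums did not overlap in either line, and among all tested genes the levels of single genes did not overlap for 75.2% in abl and 67.4% in LNCaP. MCM7 had 99.1 and 90.5 CPM in abl siCREB1 libraries against 52.7 and 59.5 CPM in siControl (log2 change 0.77 ± 0.10 SE, adjusted p = 1.77e-05). In LNCaP it had 53.2 and 61.3 CPM under siCREB1 against 84.7 and 95.7 CPM under siControl (-0.65 ± 0.10, adjusted p = 0.000142). In MCM7 each line thus ended near the control level of the other. The summed level of the ring in abl siCREB1 libraries, however, lay above that in LNCaP siControl libraries.

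The largest falls in LNCaP were among the factors that switch the ring on and among the enzymes that make deoxynucleotides. MCM10, which attaches to the helicase as it starts, had 0.221 and 0.547 CPM in LNCaP siCREB1 libraries against 5.7 and 5.51 CPM in siControl, resting on 6 and 15 counts against 158 and 86. Its log2 change was -3.85 ± 0.29 SE (adjusted p = 5.55e-07). In abl it had 8.25 and 7.09 CPM under siCREB1 against 4.28 and 4.79 CPM under siControl, a change of 0.79 ± 0.19 (adjusted p = 0.00354). MCM10 was thus lowest in LNCaP siCREB1 and highest in abl siCREB1 of all libraries, and its siCREB1 effect differed between the lines by 4.64 ± 0.35 (adjusted p = 9.89e-07).

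CDC45, the helicase cofactor that loads with GINS, had 7.07 and 5.39 CPM in abl siCREB1 libraries against 2.69 and 3.57 CPM in siControl (1.08 ± 0.24, adjusted p = 0.00217). In LNCaP it had 0.405 and 0.985 CPM under siCREB1 against 4.95 and 3.97 CPM under siControl (-2.69 ± 0.31, adjusted p = 1.92e-05). The lines differed by 3.77 ± 0.40 (adjusted p = 1.75e-05), though the rise in abl no longer passed without the first abl siControl library (0.81, adjusted p = 0.0896).

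The 4 GINS subunits did not move together. GINS2 showed the largest rise of the set in abl, with 9.19 and 6.64 CPM under siCREB1 against 2.53 and 3.34 CPM under siControl (1.52 ± 0.22, adjusted p = 5.23e-05), and it was lower in LNCaP siCREB1 cells (-0.64 ± 0.20, adjusted p = 0.0187). GINS1 was lower in both lines, with 13.8 and 12.4 CPM in abl siCREB1 against 15.7 and 17.4 CPM in siControl (-0.32 ± 0.11, adjusted p = 0.025), and 8.25 and 6.97 CPM in LNCaP siCREB1 against 18.5 and 18.6 CPM (-1.29 ± 0.11, adjusted p = 1.76e-06). GINS4 passed in LNCaP (-1.11 ± 0.15) but not in abl (0.37 ± 0.15, adjusted p = 0.0545), and GINS3 passed in neither. GINS2 overlaps another protein-coding gene in RefSeq, as do MCM7, ORC1, TYMS and UHRF1, and the library kit does not mark strand.

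Ribonucleotide reductase turns ribonucleotides into deoxynucleotides and has a large subunit, RRM1, and a small one, RRM2, which is made in S phase. RRM2 had 40.5 and 27 CPM in abl siCREB1 libraries against 22.1 and 18.9 CPM in siControl (0.69 ± 0.17, adjusted p = 0.00421). In LNCaP it had 1.66 and 2.55 CPM under siCREB1 against 17 and 17 CPM under siControl (-3.01 ± 0.23, adjusted p = 7.42e-07). These LNCaP siCREB1 libraries lay far below all other libraries of the series.

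RRM1 moved in the same directions by less, at 80.9 and 81.4 CPM in abl siCREB1 against 61.7 and 64.5 CPM in siControl (0.37 ± 0.07), and at 77.8 and 72.7 CPM in LNCaP siCREB1 against 95.2 and 94.5 CPM in siControl (-0.34 ± 0.06). Thymidylate synthase TYMS, which makes thymidylate, changed by 0.45 ± 0.12 in abl and -1.04 ± 0.12 in LNCaP, and the salvage enzyme TK1, thymidine kinase, by 0.65 ± 0.12 and -0.93 ± 0.12. DUT, which clears dUTP, went the other way in abl (-0.36 ± 0.08, adjusted p = 0.00146) and did not pass in LNCaP (0.05 ± 0.08). The line difference was called for all 5 of these genes.

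Of the genes that couple replication to chromatin, UHRF1 carries the maintenance methylase DNMT1 to newly made DNA. UHRF1 had 14 and 13.1 CPM in abl siCREB1 libraries against 4.83 and 5.57 CPM in siControl (1.42 ± 0.13, adjusted p = 1.12e-06). In LNCaP it had 5.89 and 6.13 CPM under siCREB1 against 12.5 and 11.9 CPM under siControl (-1.03 ± 0.12, adjusted p = 3.18e-05), and the lines differed by 2.45 ± 0.18. The levels therefore changed places between the lines. DNMT1 followed with 92.8 and 91.8 CPM in abl siCREB1 against 77.2 and 77.3 CPM (0.26 ± 0.09, adjusted p = 0.0303), and 73.3 and 82.4 CPM in LNCaP siCREB1 against 100 and 89.5 CPM (-0.29 ± 0.09, adjusted p = 0.0206). The chromatin assembly subunits CHAF1A and CHAF1B and the histone mRNA binder SLBP did not pass in either line under siCREB1.

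Origin genes behaved unevenly. ORC1, the origin recognition subunit that is renewed in each cycle, changed by 0.53 ± 0.16 in abl and -1.18 ± 0.17 in LNCaP. ORC6 and the loader CDC6 were called in LNCaP only (-1.38 ± 0.18 and -1.85 ± 0.19), although their line differences were called as well (1.08 ± 0.24 and 1.57 ± 0.24). CDC6 had 2.58 and 2.37 CPM in LNCaP siCREB1 libraries against 8.3 and 9.74 CPM in siControl, and in abl 22.1 and 17 CPM under siCREB1 against 24.9 and 22.1 CPM under siControl, where the groups met. ORC3 fell in abl (-0.69 ± 0.09) and ORC4 did too, at 84.8 and 87.4 CPM in siCREB1 against 104 and 114 CPM in siControl (-0.34 ± 0.07), while neither passed in LNCaP. ORC2 and ORC5 passed in none of the 9 comparisons made.

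At the fork, PCNA, the sliding clamp, and FEN1 and LIG1, which trim and seal Okazaki fragments, were higher in abl (0.51 ± 0.07, 0.32 ± 0.10 and 0.54 ± 0.11) and lower in LNCaP (-0.20 ± 0.07, -0.41 ± 0.11 and -0.60 ± 0.10). The clamp loader split. RFC2 was higher in abl (0.90 ± 0.11), whereas RFC1, its large subunit, was lower in both lines, at 117 and 126 CPM in abl siCREB1 against 144 and 157 CPM in siControl (-0.30 ± 0.08) and 85.3 and 84.6 CPM in LNCaP siCREB1 against 99.3 and 99.3 CPM (-0.23 ± 0.08). RFC3 was also lower in both (-0.46 ± 0.14 in abl and -0.58 ± 0.13 in LNCaP), and for RFC1 and RFC3 no line difference was called (-0.08 ± 0.11 and 0.12 ± 0.19). The 3 subunits of RPA, which coats single-stranded DNA, did not pass in abl, and RPA2 was the 1 gene of the set that was higher in LNCaP siCREB1 cells (0.31 ± 0.08, adjusted p = 0.00816).

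The polymerase genes held the main exception in abl. POLE, the catalytic subunit of the leading-strand polymerase, had 73 and 66.4 CPM in abl siCREB1 libraries against 140 and 169 CPM in siControl (-1.14 ± 0.08, adjusted p = 1.11e-07), but 37.5 and 37.2 CPM in LNCaP siCREB1 libraries against 39.8 and 40.2 CPM in siControl (-0.10 ± 0.09, adjusted p = 0.419). POLD3, an accessory subunit of the lagging-strand polymerase, also fell in abl (-0.45 ± 0.11). POLD1, its catalytic subunit, was higher in abl (0.85 ± 0.14), as were POLA2 of the primase complex (0.48 ± 0.12) and POLD2, with 283 and 303 CPM in siCREB1 against 240 and 227 CPM in siControl (0.32 ± 0.08). In LNCaP, 3 of the 9 polymerase genes were lower, POLA1, PRIM1 and POLE2, and none higher.

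**Figure D2:**
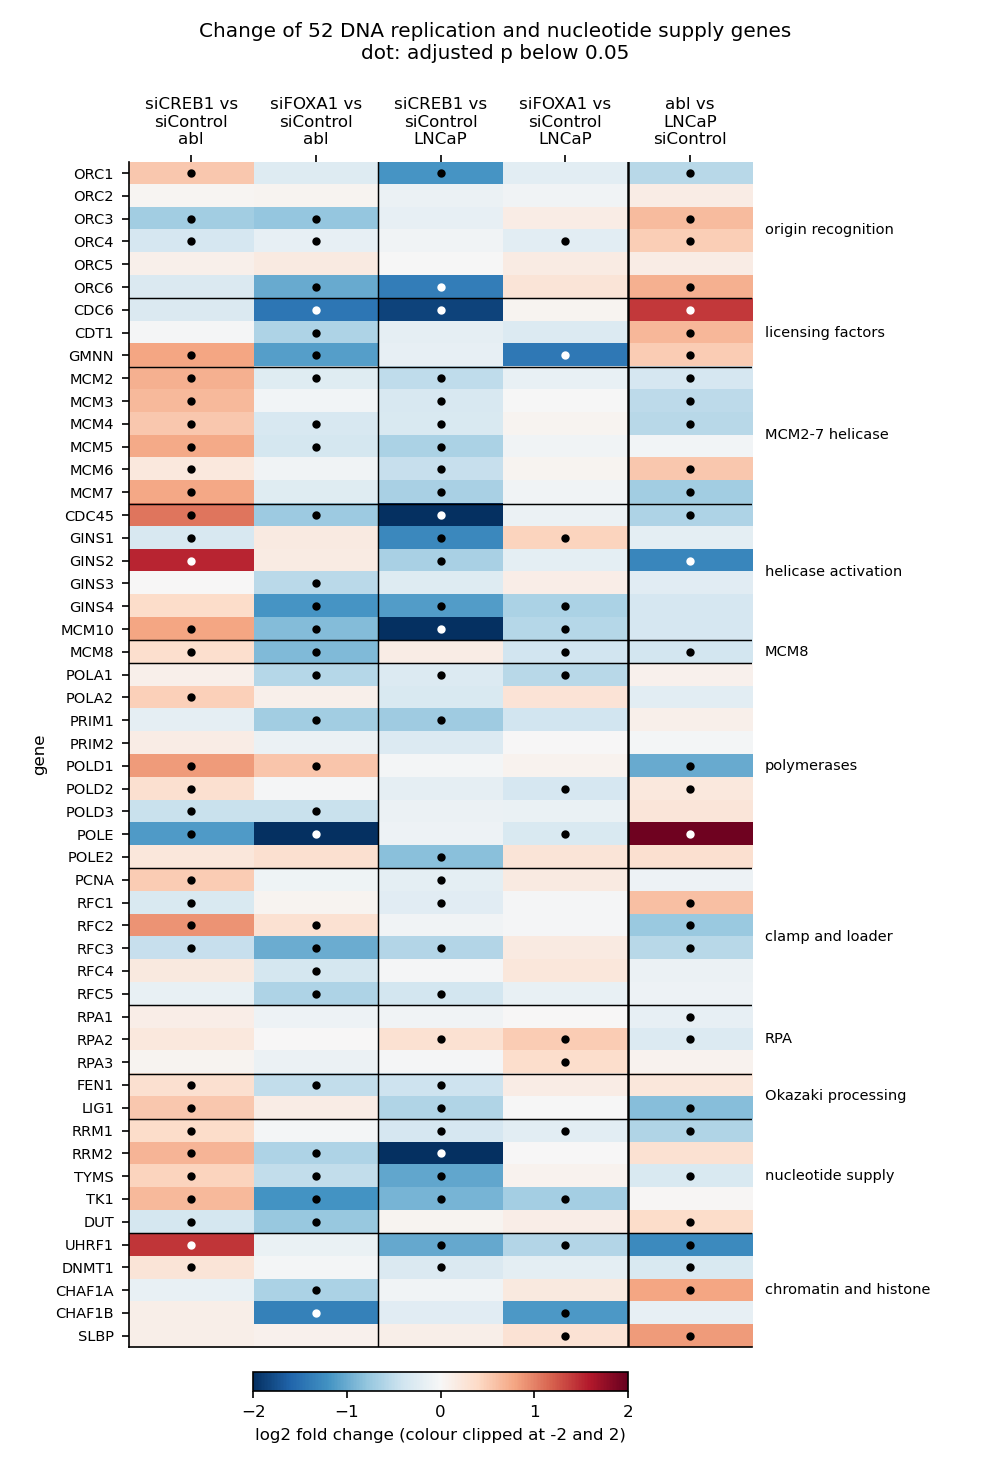
Log2 fold change of the 52 genes (rows, grouped by role) in the 4 knockdown comparisons and in abl against LNCaP under siControl (columns), with red for higher and blue for lower in the first-named group, colours clipped at -2 and 2, and a dot where the adjusted p was below 0.05. The MCM2-7 block is red in abl and blue in LNCaP under siCREB1, and POLE is dark blue under siFOXA1 in abl, pale blue under siFOXA1 in LNCaP and dark red between the lines.

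Promoter sequences from RefSeq (GRCh38.p14) were given for 46 of the 52 genes, as windows of 250 bases before to 50 after a start, and were searched on both strands. The E2F motif was taken as TTTCCCGC, TTTGGCGC, TTTCGCGC or TTTGCCGC, and the CREB motif (CRE) as TGACGTCA, which reads the same on both strands. An E2F match stood in 23 of the 46 genes (50%), against 6.24% of the 10300 tested genes with a window and 3.99% of all 27305 genes with one. Among the genes higher in abl and lower in LNCaP under siCREB1 it stood in 10 of 17 (58.8%), and among the other genes of the set in 13 of 29 (44.8%). The CCAAT box (CCAAT) matched 27 of the 46 genes (58.7%) against 43.1% of tested genes, and CHR (TTTGAA) 2 of 46 (4.35%) against 13.9%. A CRE match stood in only 3 of the 46 (6.52%), against 3.58% of tested genes. Those 3 were MCM10, which fell most in LNCaP siCREB1 cells but was higher in abl siCREB1 cells, and RFC1 and RFC3, both lower in the 2 lines. Split as for E2F, a CRE match stood in 1 of 17 genes higher in abl and lower in LNCaP (5.88%). Among the other genes of the set it stood in 2 of 29 (6.9%). Matches are descriptions of letters, not binding sites, and no match says only that these letters are absent from the window.

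The 160 bases before the start are printed for the 3 genes with a CRE match, for MCM6, which had the most E2F matches, and for UHRF1 and GINS2, the genes with an E2F match whose siCREB1 effects differed most between the lines. Each runs 5′ to 3′ on the strand of its gene, ending at the base before the start, with E2F and CRE matches in capitals. They lie at chr10:13161398-13161557 (MCM10, plus strand), chr4:39366363-39366522 (RFC1, minus), chr13:33817989-33818148 (RFC3, plus), chr2:135876444-135876603 (MCM6, minus), chr19:4909341-4909500 (UHRF1, plus) and chr16:85688955-85689114 (GINS2, minus).
MCM10: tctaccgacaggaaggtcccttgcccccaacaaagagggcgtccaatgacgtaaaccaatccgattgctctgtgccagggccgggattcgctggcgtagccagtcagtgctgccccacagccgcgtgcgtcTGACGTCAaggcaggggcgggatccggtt
RFC1: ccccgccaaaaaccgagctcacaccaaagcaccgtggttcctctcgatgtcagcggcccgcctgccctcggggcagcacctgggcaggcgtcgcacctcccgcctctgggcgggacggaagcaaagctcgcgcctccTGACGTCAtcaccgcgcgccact
RFC3: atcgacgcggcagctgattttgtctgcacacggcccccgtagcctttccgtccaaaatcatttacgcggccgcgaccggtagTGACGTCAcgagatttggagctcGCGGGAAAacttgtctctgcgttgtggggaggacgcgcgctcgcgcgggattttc
MCM6: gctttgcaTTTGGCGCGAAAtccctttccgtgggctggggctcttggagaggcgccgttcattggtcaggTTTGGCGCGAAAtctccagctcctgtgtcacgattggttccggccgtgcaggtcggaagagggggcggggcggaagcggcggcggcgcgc
UHRF1: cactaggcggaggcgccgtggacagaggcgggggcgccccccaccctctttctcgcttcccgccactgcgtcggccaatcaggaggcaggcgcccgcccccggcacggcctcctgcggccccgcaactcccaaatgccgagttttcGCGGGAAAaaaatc
GINS2: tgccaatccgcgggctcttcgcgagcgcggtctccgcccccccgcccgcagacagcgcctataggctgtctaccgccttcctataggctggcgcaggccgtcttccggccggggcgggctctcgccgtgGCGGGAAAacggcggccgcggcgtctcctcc
The CRE letters begin 29 bases before the start in MCM10, 23 in RFC1 and 78 in RFC3, where an E2F match also begins at 55. In MCM6, each of the 2 capital runs holds an E2F match on either strand that overlap each other, beginning 152 and 148, and 90 and 86, bases before the start. UHRF1 and GINS2 each hold 1, beginning 14 and 31 bases before it, and those in RFC3, UHRF1 and GINS2 read TTTCCCGC on the other strand.

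Under siFOXA1 more replication genes fell in abl than in LNCaP. In abl siFOXA1 cells 2 of the 52 genes were higher and 28 lower than in abl siControl cells, with a median log2 change of -0.29 against 0.03 over all genes, where 29.9% of all genes were called higher and 26.5% lower, 56.5% in all. In LNCaP siFOXA1 cells 4 were higher and 12 lower, with a median of -0.02 against -0.01 over all genes, where 24.4% were called higher and 25.5% lower, 49.8% in all. The LNCaP share of 23.1% lower was thus close to the background, and that of 7.69% higher was below it. With total counts as the only scaling the LNCaP split was 8 higher and 11 lower. Without the first siControl libraries the counts were 2 higher and 22 lower in abl, and 6 higher and 8 lower in LNCaP. The test of the difference between the lines called 0 genes higher in abl than in LNCaP in their siFOXA1 effect and 16 lower, against 17.9% higher and 14.7% lower over all genes, 32.6% in all. Without the first siControl libraries that became 2 higher and 8 lower. The abl siControl libraries also serve the siCREB1 comparison in abl, and those of LNCaP likewise, so the effects of the 2 siRNAs are not independent.

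The 3 licensing genes all fell in abl siFOXA1 cells, and 1 of them, GMNN, fell in LNCaP too. GMNN encodes geminin, the inhibitor that keeps CDT1 from licensing origins again after S phase has begun. It had 22.6 and 22.5 CPM in abl siFOXA1 libraries against 52.5 and 42.9 CPM in siControl (-1.11 ± 0.09, adjusted p = 3.01e-07), and 11.7 and 13.5 CPM in LNCaP siFOXA1 libraries against 34.9 and 33.1 CPM (-1.43 ± 0.10, adjusted p = 7.98e-08). Under siCREB1 the same gene was higher in abl, at 84.9 and 82.7 CPM (0.79 ± 0.09), and stood at 30.4 and 30.6 CPM in LNCaP, where it did not pass (-0.16 ± 0.09). In both lines its level was lowest in the siFOXA1 libraries.

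CDC6 had 7.77 and 9.68 CPM in abl siFOXA1 libraries against 24.9 and 22.1 CPM in siControl (-1.44 ± 0.15, adjusted p = 2.2e-06), but 8.51 and 9.98 CPM in LNCaP siFOXA1 libraries against 8.3 and 9.74 CPM (0.05 ± 0.16, adjusted p = 0.805), and the lines differed (-1.50 ± 0.22, adjusted p = 0.000165). ORC6 differed likewise between the lines (-1.27 ± 0.22, adjusted p = 0.000672), with 4.96 and 4.41 CPM in abl siFOXA1 libraries against 9.05 and 10.1 CPM, and 6.03 and 7.72 CPM in LNCaP siFOXA1 libraries against 5.52 and 6.08 CPM. So did RFC3 (-1.18 ± 0.20, adjusted p = 0.000405), with 4.78 and 4.45 CPM in abl siFOXA1 against 8.61 and 10.5 CPM, and 14.6 and 16.1 CPM in LNCaP siFOXA1 against 13 and 14.3 CPM. In these genes both abl siFOXA1 libraries lay below both abl siControl libraries, and groups in abl failed to overlap in this way or the opposite one for 77% of all tested genes. No change was called in LNCaP for CDC6, ORC6 or RFC3.

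**Figure D3:**
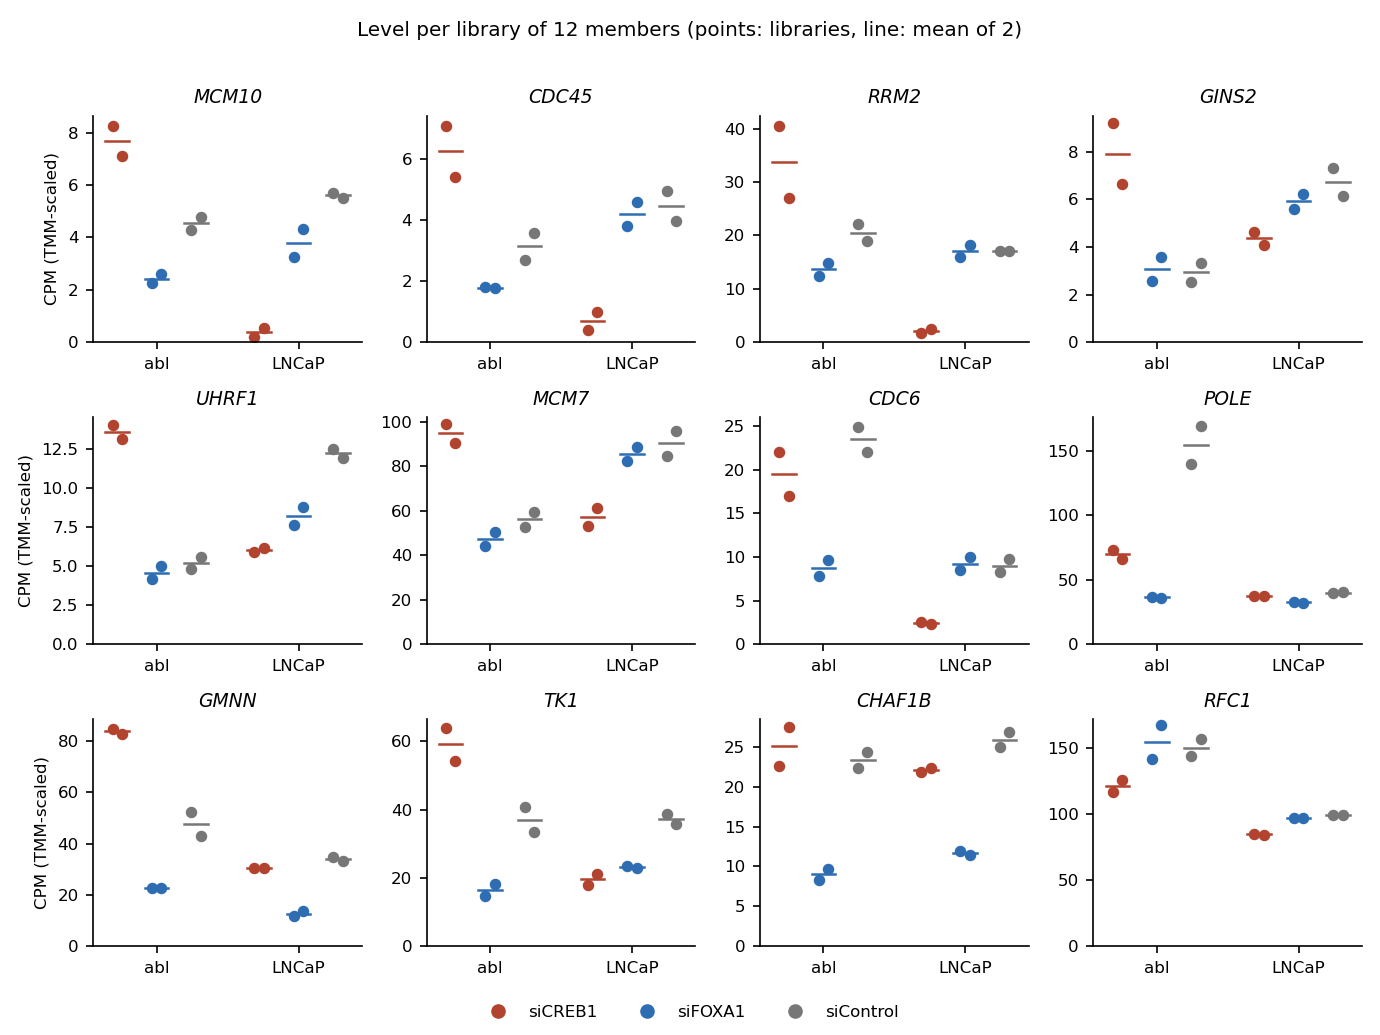
Level of 12 of the 52 genes in each library, as TMM-scaled CPM on linear axes from 0, with abl at left and LNCaP at right and siCREB1, siFOXA1 and siControl from left to right within each line; points are libraries and lines are means of 2. MCM10, CDC45 and RRM2 are highest in abl siCREB1 and lowest in LNCaP siCREB1, POLE is high in abl siControl, and GMNN and CHAF1B are lowest under siFOXA1 in both lines.

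CHAF1B, a subunit of the factor that deposits histones on new DNA, fell in both lines. It had 8.27 and 9.72 CPM in abl siFOXA1 libraries against 22.4 and 24.3 CPM in siControl (-1.36 ± 0.12, adjusted p = 3.74e-07), and 11.9 and 11.4 CPM in LNCaP siFOXA1 libraries against 25 and 26.8 CPM (-1.15 ± 0.11, adjusted p = 1.68e-06). The difference between the lines did not pass (-0.21 ± 0.16). Its partner CHAF1A fell in abl (-0.63 ± 0.09) and not in LNCaP (0.20 ± 0.09, adjusted p = 0.0911).

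Of the nucleotide enzymes, TK1 had 14.7 and 18.3 CPM in abl siFOXA1 libraries against 40.8 and 33.3 CPM (-1.19 ± 0.13, adjusted p = 3.08e-06), and 23.4 and 22.9 CPM in LNCaP siFOXA1 libraries against 38.6 and 35.7 CPM (-0.69 ± 0.12, adjusted p = 0.000407). RRM2, TYMS and DUT fell in abl (-0.61 ± 0.18, -0.50 ± 0.12 and -0.76 ± 0.08), and none of these 3 passed in LNCaP (0.01 ± 0.18, 0.08 ± 0.11 and 0.14 ± 0.08). RRM1 fell in LNCaP (-0.20 ± 0.06, adjusted p = 0.0141) and did not pass in abl (-0.03 ± 0.07), with no called line difference (0.17 ± 0.09).

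A total of 9 of the 52 genes fell in both lines under siFOXA1, comparisons that share no library, and none was higher in both. Of all tested genes 15% were lower in both and 15.6% higher in both, so the count of 9 was close to the background and that of 0 below it. They were ORC4, GMNN, GINS4, MCM10, MCM8, POLA1, POLE, TK1 and CHAF1B. GINS4 had 2.62 and 3.5 CPM in abl siFOXA1 libraries against 7.33 and 6.13 CPM (-1.18 ± 0.17), and 5.27 and 6 CPM in LNCaP siFOXA1 libraries against 8.63 and 8.9 CPM (-0.63 ± 0.15, adjusted p = 0.00313). MCM8, a helicase of recombination repair related to the MCM ring, changed by -0.88 ± 0.15 in abl and -0.39 ± 0.13 in LNCaP. The count of 9 was 7 without the first siControl libraries and 5 without the first LNCaP siFOXA1 library.

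For the MCM2-7 ring under siFOXA1, 3 of the 6 subunits fell in abl, MCM2, MCM4 and MCM5, by 0.24, 0.33 and 0.36 on the log2 scale, and none passed in LNCaP, with changes of -0.15 to 0.06. The abl count was 0 without the first abl siFOXA1 library and 1 without the first abl siControl library. RPA2 and RPA3 were higher in LNCaP siFOXA1 cells, RPA2 at 51.5 and 49.8 CPM against 35.4 and 35.9 CPM (0.51 ± 0.08, adjusted p = 0.000153), as were GINS1 (24.7 and 25.7 CPM against 18.5 and 18.6 CPM, 0.44 ± 0.10) and SLBP (0.29 ± 0.07). In abl the 2 genes higher under siFOXA1 were POLD1 (0.55 ± 0.14) and RFC2 (0.31 ± 0.11).

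POLE had the largest siFOXA1 change of the set in abl. It stood at 36.7 and 35.9 CPM in abl siFOXA1 libraries against 140 and 169 CPM in siControl (-2.08 ± 0.09, adjusted p = 3.83e-10), and at 32.8 and 32.1 CPM in LNCaP siFOXA1 libraries against 39.8 and 40.2 CPM (-0.30 ± 0.09, adjusted p = 0.0125). The lines differed by -1.78 ± 0.12 (adjusted p = 2.37e-07). After siFOXA1 the abl libraries thus lay just below the LNCaP siControl libraries.

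The control cells of the 2 lines already differed in these genes. In abl siControl cells 13 of the 52 were higher and 18 lower than in LNCaP siControl cells, with a median of -0.10 against -0.02 over all genes, where 30.5% of all genes were called higher and 33.1% lower, 63.6% in all. The majority turned to 12 higher and 9 lower without the first siControl libraries, so the split gives no direction for the set, and the shares of 25% higher and 34.6% lower were close to the background. These libraries are also the controls of the knockdown comparisons, so these differences and the knockdown effects are not independent. The called genes were not of 1 kind. POLE was higher in abl, at 140 and 169 CPM against 39.8 and 40.2 CPM (1.94 ± 0.09, adjusted p = 1.89e-10), as was CDC6, at 24.9 and 22.1 CPM against 8.3 and 9.74 CPM (1.41 ± 0.15, adjusted p = 1.95e-06). UHRF1 was lower in abl, at 4.83 and 5.57 CPM against 12.5 and 11.9 CPM (-1.28 ± 0.14, adjusted p = 1.5e-06), as was GINS2, at 2.53 and 3.34 CPM against 7.33 and 6.15 CPM (-1.31 ± 0.22, adjusted p = 0.000141). Without the first siControl libraries the GINS2 difference no longer passed (-0.86, adjusted p = 0.0695). Of the ring, MCM2, MCM3, MCM4 and MCM7 were lower in abl (-0.34 to -0.70), MCM6 was higher (0.54 ± 0.07) and MCM5 did not pass (-0.06 ± 0.11).

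Set against each other without the controls, the 2 siRNAs left the set at different levels. In abl, 38 of the 52 genes were higher and 2 lower under siCREB1 than under siFOXA1, with a median of 0.54 against -0.01 over all genes, where 20% of all genes were called higher and 21% lower, 41% in all. The 2 lower ones were GINS1 (-0.49 ± 0.10) and RFC1 (-0.35 ± 0.08). GMNN led, at 84.9 and 82.7 CPM under siCREB1 against 22.6 and 22.5 CPM under siFOXA1 (1.90 ± 0.09, adjusted p = 5.1e-09). TK1 followed at 64 and 54.3 CPM against 14.7 and 18.3 CPM (1.84 ± 0.12), then CDC45 at 7.07 and 5.39 CPM against 1.79 and 1.77 CPM (3.48-fold, adjusted p = 7.76e-05) and MCM10 at 8.25 and 7.09 CPM against 2.25 and 2.59 CPM (1.66 ± 0.20).

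In LNCaP the order was the other way for most genes. There 4 of the 52 were higher and 26 lower under siCREB1 than under siFOXA1, with a median of -0.31 against -0.01 over all genes, where 20.6% were called higher and 22.5% lower, 43% in all. MCM10 stood at 0.221 and 0.547 CPM under siCREB1 against 3.25 and 4.32 CPM under siFOXA1 (-3.29 ± 0.30), RRM2 at 1.66 and 2.55 CPM against 16 and 18.2 CPM (-3.02 ± 0.23), CDC45 at 0.405 and 0.985 CPM against 3.79 and 4.59 CPM (-2.58 ± 0.30), and CDC6 at 2.58 and 2.37 CPM against 8.51 and 9.98 CPM (-1.90 ± 0.19). The 4 higher ones were GMNN (1.27 ± 0.10), CHAF1B (0.93 ± 0.11), MCM8 (0.53 ± 0.13) and POLA1 (0.28 ± 0.10), all of them among the genes that fell under siFOXA1 in both lines.

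Other genes of the pathway, from a further list of 25 replication factors, showed 11 higher and 4 lower in abl siCREB1 cells and 3 higher and 10 lower in LNCaP siCREB1 cells. The shares of all tested genes were 27.5% higher and 23.7% lower in abl, and 17.8% higher and 19.8% lower in LNCaP. CLSPN, claspin of the replication checkpoint, changed by 0.68 ± 0.16 in abl, and POLE4, a small subunit of the leading-strand polymerase, by 0.69 ± 0.11. POLE4 also stood higher in LNCaP siCREB1 libraries, at 43.5 and 43.2 CPM against 29.3 and 24.3 CPM in siControl. No line difference was called for it (0.01 ± 0.16). Under siFOXA1 it was higher as well, at 77.6 and 70.9 CPM in abl against 36.2 and 27.6 CPM, and at 44.4 and 47.4 CPM in LNCaP. In LNCaP siCREB1 cells the largest changes were in DTL (-2.79 ± 0.26), which directs CDT1 to destruction, and TICRR, listed as C15orf42 (-2.33 ± 0.25), which helps load CDC45. Under siFOXA1 the 25 gave 7 higher and 11 lower in abl, and 8 higher and 5 lower in LNCaP. Of all tested genes 29.9% were higher and 26.5% lower in abl, and 24.4% higher and 25.5% lower in LNCaP, so that the higher share in abl (28%) and both shares in LNCaP (32% and 20%) lay near the background. Under siFOXA1 DTL changed by -1.55 ± 0.22 and TICRR by -1.28 ± 0.19 in abl, and RNASEH2B, a subunit of a ribonuclease of RNA-DNA hybrids, by 1.10 ± 0.13 and TICRR by -0.88 ± 0.21 in LNCaP.

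A list of 12 further nucleotide supply genes gave 6 higher and 2 lower in abl siCREB1 cells, 5 and 4 in abl siFOXA1 cells, 1 and 4 in LNCaP siCREB1 cells, and 4 and 1 in LNCaP siFOXA1 cells. The shares of all tested genes were, in the same order, 27.5% and 23.7%, 29.9% and 26.5%, 17.8% and 19.8%, and 24.4% and 25.5%. NME1, a nucleoside diphosphate kinase, was higher in each of these comparisons, at 39.4 and 34.5 CPM in abl siCREB1 libraries and 36.7 and 31.8 CPM in abl siFOXA1 libraries, against 12.3 and 10.5 CPM in abl siControl libraries. In LNCaP it stood at 21.3 and 23.9 CPM under siCREB1 and 23.9 and 28.6 CPM under siFOXA1, against 14.1 and 17 CPM under siControl. The other genes this list contributes were DTYMK, thymidylate kinase (0.53 ± 0.10 in abl siCREB1), the nucleoside transporter SLC29A1 (-1.35 ± 0.13 in abl siFOXA1), IMPDH2 of guanine nucleotide synthesis (-0.47 ± 0.09 in LNCaP siCREB1) and the CTP synthase listed as CTPS (0.66 ± 0.07 in LNCaP siFOXA1).

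Of 7 further genes of replication-coupled chromatin, 2 were higher and 2 lower in abl under siCREB1 and likewise under siFOXA1, 0 were higher and 4 lower in LNCaP siCREB1 cells, and 2 were higher and 2 lower in LNCaP siFOXA1 cells. A count of 2 of 7 (28.6%) is near the share of all tested genes in either direction in abl under siCREB1 (27.5% and 23.7%) and siFOXA1 (29.9% and 26.5%) and in LNCaP under siFOXA1 (24.4% and 25.5%). The 4 of 7 lower in LNCaP siCREB1 cells (57.1%) stand against 19.8% of all tested genes. HELLS, a chromatin remodeller tied to DNA methylation, changed by 0.66 ± 0.20 in abl and -1.24 ± 0.21 in LNCaP under siCREB1, and the histone chaperone ASF1B by -1.92 ± 0.23 in LNCaP under siCREB1 and -1.55 ± 0.22 in abl under siFOXA1. SSRP1, a subunit of the histone chaperone FACT, changed by -0.46 ± 0.07 in abl siCREB1 and by -0.31 ± 0.06 in LNCaP siFOXA1, where HELLS changed by 0.49 ± 0.18. SSRP1 also stood lower in abl siFOXA1 libraries, at 99 and 106 CPM against 161 and 160 CPM in siControl. In LNCaP siCREB1 libraries it had 137 and 150 CPM against 181 and 187 CPM. HELLS stood higher in abl siFOXA1 libraries too, at 4.32 and 4.79 CPM against 2.97 and 2.67 CPM.

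Genes of mitosis did not follow the replication genes in abl under siCREB1. Of 34 mitosis genes, 34 were lower and 0 higher in abl siCREB1 cells, with a median of -1.01 and against 23.7% of all tested genes lower, while 25 of the 52 replication genes were higher. Their summed level was 839 and 672 CPM in abl siCREB1 libraries against 1620 and 1550 CPM in siControl, whereas that of the 52 replication genes was 2280 and 2210 CPM against 2000 and 2000 CPM. CENPF, a kinetochore protein, changed by -2.04 ± 0.14 and KIF2C, a microtubule-depolymerising motor, by -2.03 ± 0.16. In abl siCREB1 cells the replication sum was thus the highest of all libraries and the mitosis sum about that of LNCaP siControl.

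In the other 3 knockdown groups both sums were below their controls. In LNCaP siCREB1 libraries the mitosis sum was 226 and 235 CPM against 809 and 770 CPM in siControl, and the replication sum 1520 and 1560 CPM against 1860 and 1840 CPM. In abl siFOXA1 libraries the mitosis sum was 382 and 424 CPM against 1620 and 1550 CPM, and the replication sum 1580 and 1710 CPM against 2000 and 2000 CPM. In LNCaP siFOXA1 libraries the mitosis sum was 529 and 540 CPM against 809 and 770 CPM, and the replication sum 1720 and 1790 CPM against 1860 and 1840 CPM. Such sums weigh abundant genes most. In LNCaP under siFOXA1 the median log2 change of the 52 replication genes was -0.02, with 24 above 0 and 28 below. The most abundant of them, POLD2, stood at 149 and 173 CPM there against 208 and 197 CPM in siControl. Of the 34 mitosis genes, 33 were called lower in LNCaP siCREB1, 34 in abl siFOXA1 and 27 in LNCaP siFOXA1, with 0 higher in each. The shares of all tested genes called lower were 19.8%, 26.5% and 25.5%, in the same order. The part of the mitosis genes in the changes of the replication genes was not tested.

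**Figure D4:**
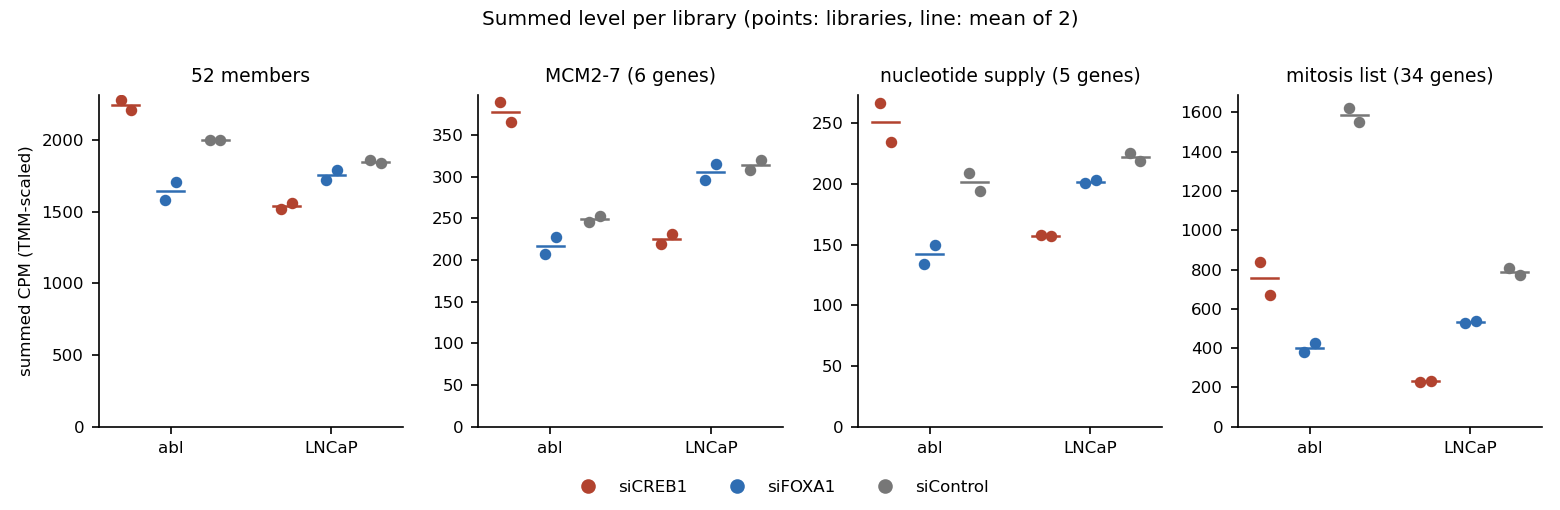
Summed TMM-scaled CPM per library, on linear axes from 0, of the 52 genes, of the MCM2-7 ring, of the 5 nucleotide supply genes and of a list of 34 mitosis genes, with siCREB1, siFOXA1 and siControl from left to right in abl and then LNCaP; points are libraries and lines are means of 2. The first 3 panels have abl siCREB1 as their highest group, at 2280 and 2210 CPM for all 52 genes, while the mitosis panel has abl siControl highest, at 1620 and 1550 CPM.

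The authors' deposited tables for the knockdowns list genes up to an FDR of 0.05. For abl, the authors' deposited table holds 34 of the 52 genes under siCREB1 (26 higher, 8 lower) and 29 under siFOXA1 (2 higher, 27 lower). In LNCaP, the authors' deposited table gives 26 after CREB1 knockdown (1 higher, 25 lower) and 14 after FOXA1 knockdown (4 higher, 10 lower). Every listed gene had the same sign as here, and the log2 changes in the authors' deposited tables differed from those here by at most 0.03.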

How the data were processed

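Raw read counts per gene were deposited by the authors; per the submitters' processing notes, CASAVA 1.8, TopHat2 2.0.8, Bowtie2 2.1.0, HTSeq 0.5.3p9 and hg19 were used. The sources used here do not give the annotation or strand setting of the counting. The kit named in the labels does not mark strand, so the counts of the 23 of the 52 genes that overlap another gene in RefSeq (11 of them a protein-coding one) are less certain. The authors' deposited tables of log2 fold changes and p-values (FDR) were tied to edgeR 3.0.6 by the same notes.

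Each RNA sample has 2 count columns, taken as 2 libraries. Columns named SIC were read as siControl, and all 8 repeated control columns were identical. Lines that name no gene were left out; reads of no feature made up 54.8% to 58.3% of the total. In R 4.3.3, all 12 libraries entered 1 edgeR 4.0.16 fit of 6 groups (filterByExpr, TMM scaling, quasi-likelihood F-test, 6 residual degrees of freedom, common biological coefficient of variation 0.062). P-values were adjusted by Benjamini-Hochberg over 15550 genes and called below 0.05. SE is the absolute log2 change over the square root of F. Depth limits low genes most in the second abl siControl library.

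The genes, lists and rules were chosen with earlier results of these data known. Values in every library are given for the 4 called genes with the largest change per comparison (libraries not overlapping, at least 10 counts) and the highest called gene of each role of at least 3 genes, and of each other list the 2 called genes with the largest change. Alternatives were another size factor, total counts, no filter, DESeq2 1.42.0, fewer groups, each library left out and a replicate block; leaving out both first siControl libraries was added after the data were seen. Peak lists were not used here, and the ChIP-seq samples after knockdown were not analysed here.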

Additional observations from a re-analysis of the deposited data

Results flagged for a closer look

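The siCREB1 effect differed between abl and LNCaP for 31 of the 52 genes (59.6%) in the test of the difference itself, against 25.5% of all tested genes. The largest differences, abl minus LNCaP on the log2 scale, were 4.64 in MCM10, 3.77 in CDC45, 3.69 in RRM2 and 2.45 in UHRF1. All 4 were higher than control in abl and lower than control in LNCaP, and the differences stayed past the threshold under every alternative run.

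The siFOXA1 effect differed for 16 of the 52 genes (30.8%), close to the 32.6% of all tested genes called in that test. Of the 52 genes, 0 were called higher in abl than in LNCaP and 16 lower, against 17.9% and 14.7% of all tested genes. The largest differences were -1.78 in POLE, -1.50 in CDC6, -1.27 in ORC6 and -1.18 in RFC3. CDC6, ORC6 and RFC3 fell in abl and were not called in LNCaP, and POLE fell in both lines and by more in abl.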

How the results depend on the processing

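Counts are of the 52 genes called. In abl against LNCaP under siControl, the 31 calls (13 higher, 18 lower) became 21 (12 and 9) without both first siControl libraries, and 23 to 29 when 1 library was left out; the majority turned to higher without the first abl library (12 and 11) or the first LNCaP library (14 and 11). The 16 calls of the line difference under siFOXA1 became 10 without both first siControl libraries and 11 to 17 with 1 library left out. The 16 calls of siFOXA1 in LNCaP ranged from 9, without its first siFOXA1 library, to 17 with 1 library left out, and were 19 with total counts as the only scaling. With all libraries, 63.6%, 32.6% and 49.8% of all tested genes were called in these comparisons, in the same order. In each of them, leaving libraries out also lowered the number of calls over all tested genes. The cause was not tested, beyond the smaller number of libraries. Leaving out 1 library gave 26 to 31 calls for siCREB1 in abl, 21 to 26 for siFOXA1 in abl, 20 to 25 for siCREB1 in LNCaP, 31 to 33 for the line difference under siCREB1, 33 to 40 for siCREB1 against siFOXA1 in abl and 24 to 27 in LNCaP. The genes higher in abl and lower in LNCaP under siCREB1 numbered 19, 15 by DESeq2, 13 without the first abl siCREB1 library and 11 without both first siControl libraries. Of the MCM2-7 ring, 5 or 6 of the 6 were called higher in abl and lower in LNCaP under siCREB1 in each alternative run.

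Nothing in the labels ties same-numbered libraries of different groups together. Their deviations from the group means correlated at -0.17 to 0.499 over 15 pairs of groups, with 0.499 between the siControl groups of the 2 lines and 0.37 in abl and 0.321 in LNCaP between siCREB1 and siFOXA1, so some groups shared deviations and others did not, and the numbers were not taken as a pairing. With the library number as a replicate block, 33, 30, 30 and 17 genes were called for siCREB1 and siFOXA1 in abl and then in LNCaP, 32 between control lines, 33 and 17 in the line differences and 42 and 33 for siCREB1 against siFOXA1. DESeq2 gave 28, 28, 26, 14, 26, 31, 13, 38 and 24 in the same order. Over single genes, settings other than leaving out a library gave 2705 of 2808 results the same call, with 58 no longer and 45 newly past the threshold; leaving out 1 library lost 182 and gained 31 of 2288. No called change turned its direction under any alternative run. With only the 150 bases before the start, an E2F match stood in 32.6% of the 46 genes with a window against 3.46% of tested genes, and a CRE match in 6.52% against 2.8%. The planned counts of binding sites at start sites were not run, because the start sites used here are not of the peaks' genome build.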

Other observations

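Of 12 regulators of entry into S phase, 3 were higher and 3 lower in abl siCREB1 cells, 4 and 7 in abl siFOXA1 cells, 1 and 7 in LNCaP siCREB1 cells, and 5 and 1 in LNCaP siFOXA1 cells. The shares of all tested genes were, in the same order, 27.5% and 23.7%, 29.9% and 26.5%, 17.8% and 19.8%, and 24.4% and 25.5%, so that the counts in abl siCREB1 cells (25% in each direction) were at the background. E2F7, a repressor of the E2F family, changed by -1.47 ± 0.22 in abl siCREB1, by -2.33 ± 0.24 in abl siFOXA1 and by -2.57 ± 0.30 in LNCaP siCREB1 (log2 ± SE), and its relative E2F8 by -2.21 ± 0.46 in LNCaP siCREB1. CCNE1, cyclin E, was higher in abl siCREB1 cells (0.86 ± 0.13). It also stood higher in abl siFOXA1 libraries, at 7.49 and 7.86 CPM against 4.42 and 4.46 CPM in siControl. CDKN1A, the cyclin-dependent kinase inhibitor p21, had 646 and 347 CPM in abl siFOXA1 libraries against 225 and 203 CPM in siControl (1.21 ± 0.25, edgeR adjusted p = 0.00101), and 425 and 403 CPM in LNCaP siFOXA1 libraries against 133 and 122 CPM (1.70 ± 0.26, edgeR adjusted p = 0.000101). CCNE2 fell in LNCaP siFOXA1 cells (-0.84 ± 0.13).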
